A study of Mus musculus with 4 samples.

Results

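The genes described here are the mouse histone genes of the Hist1, Hist2, Hist3 and Hist4 clusters, read in single cells of intestinal organoids. Of 31040 features in the count matrices, 67 carried a symbol starting with Hist1h, Hist2h, Hist3h or Hist4h, and 56 of these had at least 50 UMIs over the 4 libraries (a UMI marks 1 captured RNA molecule). The 56 members comprised 5 H1, 13 H2A, 16 H2B, 11 H3 and 11 H4 genes. The member just inside the limit was Hist1h2ai with 57 UMIs and the gene just outside it was Hist1h2ad with 49. No other measured value entered this rule, which was set with earlier results of these data known.

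The organoids were grown from crypts of 2 mice, 10 weeks old, with floxed alleles of Cbl and Cbl-b and a tamoxifen-activated Cre recombinase expressed from the R26 locus. Knockout organoids were treated with 4-hydroxy-tamoxifen at 400 nM and cultured for 3 days. Control organoids carried the same floxed alleles and Cre and received no tamoxifen, so an effect of the drug itself and of the deletion cannot be told apart. All 4 were 10x single-cell RNA libraries. Each group has 2 libraries. The labels do not state which mouse gave which library, and libraries of the same number are taken to share a mouse because their deposited data carry a common tag. The Cbl and Cbl-b proteins are E3 enzymes that attach ubiquitin to signalling receptors, among other targets.

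Histones package DNA. Pairs of H2A, H2B, H3 and H4 form the core around which DNA is wound, and H1, the linker histone, binds where the DNA enters and leaves that core. Most genes of these clusters are replication-dependent: their RNA is made mainly while DNA is copied, and it normally ends in a stem-loop bound by the protein SLBP in place of a poly(A) tail. Some of these genes also give polyadenylated RNA in cells that have stopped dividing. Intestinal crypts hold both states, with dividing progenitors next to differentiated absorptive and secretory cells.

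The stem-loop that ends replication-dependent histone RNA was sought in the annotated transcripts (GENCODE M21, GRCm38, sense strand). It was found in 39 of the 56 members, against 74 of 30921 features in all (0.239%). In 17 members it lay within 100 bases of the annotated transcript end, and in 22 the annotated transcript ran over 100 bases past it. In 17 no match was found. Some of these 17 have short annotated transcripts, such as Hist1h4k with 312 bases, Hist1h2bn with 381 and Hist1h1b with 743. A stem-loop beyond the annotated end would be missed, so no match does not mean that the RNA lacks one. One 16-base form was shared by 22 members. The sites below are shown for the most abundant member of each histone type that held one, and for 2 members that behaved unlike the rest, Hist1h1c and Hist1h2ac. Capitals mark the stem-loop.
Hist1h1e: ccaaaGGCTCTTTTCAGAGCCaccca
Hist1h1c: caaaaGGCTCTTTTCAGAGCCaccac
Hist1h2ap: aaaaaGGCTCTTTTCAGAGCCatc
Hist1h2ac: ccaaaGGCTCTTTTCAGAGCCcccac
Hist1h2bj: ccaaaGGCTCTTTTCAGAGCCacgca
Hist1h3e: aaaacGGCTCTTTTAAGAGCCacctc
Hist1h4d: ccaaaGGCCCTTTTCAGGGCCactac

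The genes that hold these sites lie at chr13:23620629-23622558 (Hist1h1e, minus strand), chr13:23738808-23740367 (Hist1h1c, plus), chr13:21833026-21833507 (Hist1h2ap, minus), chr13:23681467-23683948 (Hist1h2ac, minus), chr13:22043214-22043676 (Hist1h2bj, plus), chr13:23561534-23562369 (Hist1h3e, minus) and chr13:23581598-23582735 (Hist1h4d, plus), and the coordinates are those of the whole gene. Hist1h2ap ended 3 bases after its stem-loop in the annotation, whereas Hist1h2ac continued for 2010 bases and Hist1h1c for 840. Members annotated past the stem-loop held 49.6% of all member UMIs, those ending at it 17.3% and those with no match 33.2%. Hist1h2bc, the member with the most UMIs, is annotated over 8710 bases (chr13:23684199-23692908, plus) and no stem-loop was found in its transcripts. The end from which the RNA was read is not given in the sources used here. Histone genes are near-identical in their coding parts, and the annotation places 4 members over another gene on the same strand (Hist1h1e over Hist1h2be among them) and 5 over a gene on the opposite strand, so counts of single members are uncertain where reads could fall to another copy. The annotation puts 44 members on chromosome 13, 9 on chromosome 3, 2 on chromosome 11 and 1 on chromosome 6.

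The libraries held 1702 and 1983 barcodes in the knockouts and 1208 and 709 in the controls, with 28597336 and 35592468 against 27855911 and 22139560 UMIs. Only 2 barcodes were shared between libraries. After removal of 70 likely doublets, 4316 well-covered cells (at least 500 genes and 5000 UMIs) were separated from 1216 low-depth barcodes (under 5000 UMIs). Median depth of well-covered cells was 21096 and 20186 UMIs in the knockouts and 23940 and 33482 in the controls. In these cells Cbl stood at 11.4 and 10.1 CPM (the usual depth-scaled UMI count, relative to all UMIs of the same barcode set in that library) in the knockouts against 16.8 and 19.7 CPM in the controls, and Cblb at 3.23 and 0.475 against 8.24 and 3.93 CPM. The deleted exons are not given here. Epithelial markers were present in every library, while summed mesenchymal markers were at most 0.08 CPM, erythroid markers 0 and immune markers 1.28 to 2.36 CPM in well-covered cells.

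A few members held most of the histone RNA. The 10 with the most UMIs took 76.3% of the 90856 member UMIs. They were Hist1h2bc with 15992, Hist1h1e with 13082, Hist1h1b with 8955, Hist1h1c with 8447, Hist1h2ap with 7272, Hist1h4d with 4160, Hist1h1d with 3503, Hist1h2ae with 3308, Hist1h4i with 3103 and Hist3h2a with 1492 UMIs. By type, H1 genes took 38.5% of the UMIs, H2B 24.8%, H2A 18.8%, H4 12.1% and H3 5.86%. The most abundant H3 gene, Hist1h3e, had 1450 UMIs. These are shares of counts, not scaled to gene length, so they rank what was captured and not the RNA level of one gene against another.

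Summed over all members, histone RNA in well-covered cells stood at 676 and 746 CPM in the knockouts and 805 and 917 CPM in the controls. The H1 genes gave 281 and 295 CPM in the knockouts against 298 and 317 in the controls. The H2A genes gave 153 and 139 against 158 and 142 CPM, and the H2B genes 114 and 180 against 188 and 327 CPM. H2B had the widest spread between libraries among the 5 types, in both groups. H3 genes gave 41.7 and 41.6 against 52.5 and 42.6 CPM, and H4 genes 86.8 and 90.8 against 107 and 88.1 CPM.

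**Figure D1:**
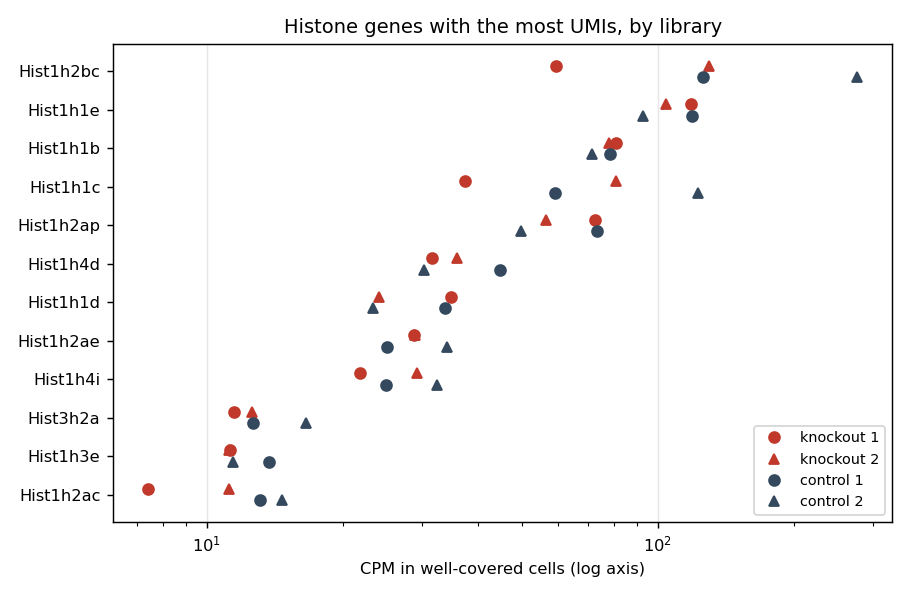
Level of the 10 histone members with the most UMIs, of Hist1h3e (the most abundant H3 gene) and of Hist1h2ac in well-covered cells, in CPM on a log axis, 1 point per library (knockouts above controls, circles mouse 1, triangles mouse 2). Hist1h2bc spans 59.6 to 276 CPM while Hist1h1b stays within 71.5 to 80.6 CPM.

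Well-covered cells were next divided by 41 S phase genes and 49 G2/M genes, none of them a histone gene. Each cell was thinned to 5000 UMIs, and a cell was called high for a list at or above the 75th percentile, which was 15 UMIs for the S list and 47 for the G2/M list. S-high cells passed the S limit alone, G2M-high cells the G2/M limit alone, a further class passed both, and the neither class was below both. The classes are ranges of a continuous score: 227 cells lay within 1 UMI of the S limit and 76 within 1 UMI of the G2/M limit.

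Cells with high S phase genes carried more RNA of most histone genes and less of a small set. In S-high against neither cells, 41 of 53 tested members were higher and 6 lower, where 30.2% and 32.6% of all 12026 genes were higher and lower (62.9% in either direction; edgeR quasi-likelihood test, library as block, Benjamini-Hochberg adjusted p under 0.05). The members' median log2 fold change was 1.59. The other 3 members, Hist1h2ai, Hist1h2bp and Hist2h3b, did not pass the filter on low counts. By type, 4 of 5 H1, 10 of 12 H2A, 11 of 15 H2B, 7 of 10 H3 and 9 of 11 H4 genes were higher.

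Among the linker histones, Hist1h1b had 108 and 130 CPM in knockout and 134 and 182 CPM in control S-high cells, against 16.4, 20.8, 15 and 19.3 CPM in neither cells of the same libraries. The classes did not overlap, and the log2 fold change was 2.90 ± 0.12 (SE, edgeR adjusted p = 2.7e-07). Hist1h1a rose by 2.50 ± 0.18, Hist1h1d by 2.39 ± 0.19 and Hist1h1e by 1.84 ± 0.13 on the log2 scale. The fifth linker gene went the other way. Hist1h1c had 33.2 and 37.4 CPM in knockout and 34.9 and 59.5 CPM in control S-high cells, against 48.1, 133, 77.6 and 160 CPM in neither cells (−1.30 ± 0.18, edgeR adjusted p = 2.5e-04).

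Among the core histones, the H2A gene Hist1h2ap rose by 2.47 ± 0.12 and Hist1h2ae by 2.30 ± 0.11 on the log2 scale. Hist1h2bn, an H2B gene, had the largest log2 fold change among called members with at least 200 UMIs, 2.91 ± 0.41, with 24 to 36 UMIs per library in S-high cells against 0 to 16 in neither cells. Hist1h2af, an H2A gene, followed Hist1h1b at 2.67 ± 0.31. The H3 gene Hist1h3e rose by 1.59 ± 0.17, and the H4 genes Hist1h4d and Hist1h4i by 1.26 ± 0.14 and 0.81 ± 0.09.

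The members that were lower in S-high cells belonged to all types but H4. Hist1h2bc (H2B) had 36.6 and 42.6 CPM in knockout and 40.8 and 68.7 CPM in control S-high cells, against 132, 252, 220 and 391 CPM in neither cells, a log2 fold change of −2.39 ± 0.12 (edgeR adjusted p = 1.0e-06). Hist3h2a (H2A) was at −1.01 ± 0.14, Hist1h2ac (H2A) at −0.68 ± 0.15 and Hist2h3c1 (H3) at −1.42 ± 0.37. Hist2h3c2 (H3) had 0, 0, 1 and 0 UMIs in S-high cells against 5, 34, 12 and 34 in neither cells of knockouts 1 and 2 and controls 1 and 2, and no fold is given. Of these 6 members, Hist1h2bc had no stem-loop match and the other 5 are annotated over 100 bases past the stem-loop. None of the 17 members annotated to end at the stem-loop was lower, and 16 of them were higher (median log2 fold change 1.60). Of 22 annotated past it, 13 were higher and 5 lower (median 0.97). Of 14 tested members with no match, 12 were higher and 1 lower (median 2.24).

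In G2M-high against neither cells, 45 of 53 tested members were higher and 3 lower (30.5% and 34.1% of 12060 genes), with a median of 1.62. This contrast and that of S-high cells share the neither cells, so their values stand side by side and their likeness was not tested. The largest log2 fold changes among called members with at least 200 UMIs were those of Hist1h2af (3.90 ± 0.27), Hist1h2ab (2.90 ± 0.19) and Hist1h2bn (2.89 ± 0.37). Hist1h2bc was lower (−2.79 ± 0.10), as were Hist1h1c (−1.31 ± 0.17) and Hist2h3c2 (−1.25 ± 0.44). Hist3h2a, which was lower in S-high cells, was higher in G2M-high cells (0.67 ± 0.12).

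**Figure D2:**
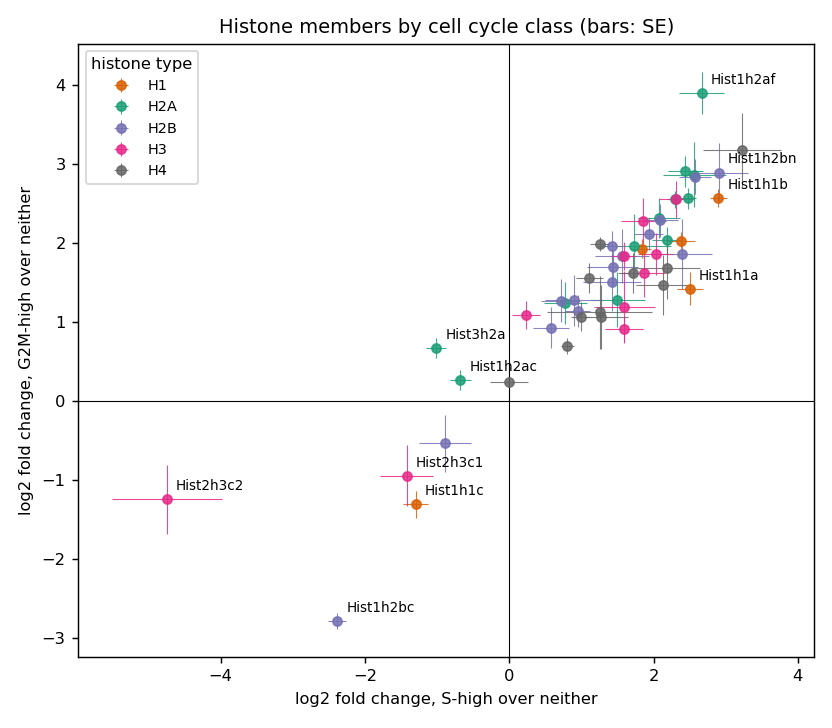
Log2 fold change of each tested histone member in S-high over neither cells (x axis) and in G2M-high over neither cells (y axis), coloured by histone type, with SE bars; both contrasts use the same neither cells. Most points lie in the upper right, while Hist1h2bc, Hist1h1c and the Hist2h3c genes lie in the lower left. The point of Hist2h3c2 rests on 1 UMI in S-high cells.

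S-high and G2M-high cells were also compared directly. Here 4 of 49 tested members were higher and 8 lower in S-high cells, against 12.3% and 11.8% of 11204 genes. Taking both directions together, members were called about as often as genes in general, and the values below describe single genes. Hist1h1a, with 17.7, 15, 13.6 and 20.6 CPM in S-high and 6.72, 7.30, 9.62 and 7.90 CPM in G2M-high cells, was higher (1.07 ± 0.14), as were Hist1h3a (0.58 ± 0.18), Hist1h2bc (0.39 ± 0.08) and Hist1h1b (0.32 ± 0.05). Hist3h2a, with 5.47, 5.92, 5.94 and 9.81 CPM in S-high and 15.9, 19.5, 22.4 and 28.3 CPM in G2M-high cells, was lower (−1.67 ± 0.12). For both genes the values run over knockouts 1 and 2 and controls 1 and 2, and the classes did not overlap. The next largest differences were Hist1h2af (−1.15 ± 0.21), Hist1h2ac (−0.96 ± 0.14), Hist1h3d (−0.85 ± 0.18) and Hist1h4d (−0.76 ± 0.08), and 5 of the 8 lower members were H2A genes.

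Genes that act on histones differed between the same classes. Of 12 tested genes for histone RNA processing, 11 were higher in S-high than in neither cells, with Casp8ap2 at 1.47 ± 0.08, Eri1 (a nuclease of histone RNA decay) at 1.36 ± 0.08 and Slbp (the stem-loop binding protein) at 1.47 ± 0.10. Of 17 chaperone genes, which carry histones to DNA, 15 were higher, with Chaf1a at 2.01 ± 0.08, Asf1b at 2.39 ± 0.12 and Chaf1b at 2.30 ± 0.12. In G2M-high against neither cells the counts were 8 of 13 and 15 of 17, but Slbp was at 0.09 ± 0.10 (edgeR adjusted p = 0.46).

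Slbp had 188 and 181 CPM in knockout and 157 and 177 CPM in control S-high cells, against 70.7, 73.2, 64.4 and 64.6 CPM in G2M-high cells, with no overlap (1.36 ± 0.05). Among 10 tested histone genes listed here as replication-independent, 1 was higher and 6 were lower in S-high than in G2M-high cells. H2afx was at −1.57 ± 0.06, Cenpa, the histone H3 form of centromeres, at −2.33 ± 0.12 and H1f0, a linker histone of resting cells, at −0.69 ± 0.05. Slbp was called higher in S-high cells against neither cells and against G2M-high cells.

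Across single well-covered cells thinned to 5000 UMIs, the correlation of histone UMIs was positive with both cycle lists in every library. Spearman's rho within a library was 0.21 to 0.36 with the G2/M list and 0.09 to 0.24 with the S list, given as a description of 577 to 1584 cells that share a library. Median counts were 2 to 3 histone UMIs per 5000.

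The S-high and neither classes also differ in cell type and depth. The 8 enterocyte markers summed to 173 to 225 CPM in S-high cells and 4549 to 12130 CPM in neither cells. A list of 7 transcripts, called nuclear here, summed to 5433 to 6983 CPM in S-high and 11115 to 17200 CPM in neither cells. It holds Malat1, Gm26917 and Lars2 among others, and where their RNA lay was not measured. Of 6 tested, 5 were lower in S-high cells and Kcnq1ot1 was higher (1.26 ± 0.17). Median depth was 21075 to 46398 UMIs in S-high cells and 14814.5 to 27798 in neither cells. The part of these in the contrast was not tested. Cells were therefore also grouped by expression without the histone genes, and levels in those groups are given as a description. The grouping gave 16 clusters, of which 8 could be named from markers.

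Enterocyte-like cells, the absorptive cells that have left the cell cycle, held most of their histone UMIs in Hist1h2bc and Hist1h1c. Hist1h2bc stood there at 384 and 576 CPM in the knockouts and 545 and 701 CPM in the controls, and Hist1h1c at 119 and 231 against 138 and 250 CPM. Together these were most of the 680 and 937 against 867 and 1108 CPM of all members. Hist1h1b, in contrast, had 0 and 0.65 against 1.42 and 0.61 CPM.

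Over the cell groups with at least 10 cells in every library, 4 members were highest in enterocyte-like cells by mean CPM, namely Hist1h2bc, Hist1h1c, Hist2h3c1 and Hist2h3c2. Cycling-like cells, marked by mitotic genes, had 708 and 714 CPM of all members in the knockouts against 928 and 966 CPM in the controls. An unnamed cluster led by E2f8, Neil3 and Esco2 (numbered 2) had 1173 and 1232 against 1475 and 1821 CPM and was highest for 6 members, Hist1h1b among them. Paneth-like cells, which secrete antimicrobial peptides, had 256 and 432 against 316 and 335 CPM.

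The highest levels of 45 members were in another unnamed cluster, numbered 8, led by Gm26917, Ddit4l and Lars2. Its summed histone level was 3347 and 1148 CPM in the knockouts and 2403 and 3764 CPM in the controls. Its cells were shallow (median 8072 UMIs) and the nuclear transcripts summed to 16514 to 38071 CPM, against 7362 to 13434 CPM over all well-covered cells. In enterocyte-like cells they summed to 28387 and 25261 CPM in the knockouts and 23765 and 28522 CPM in the controls.

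**Figure D3:**
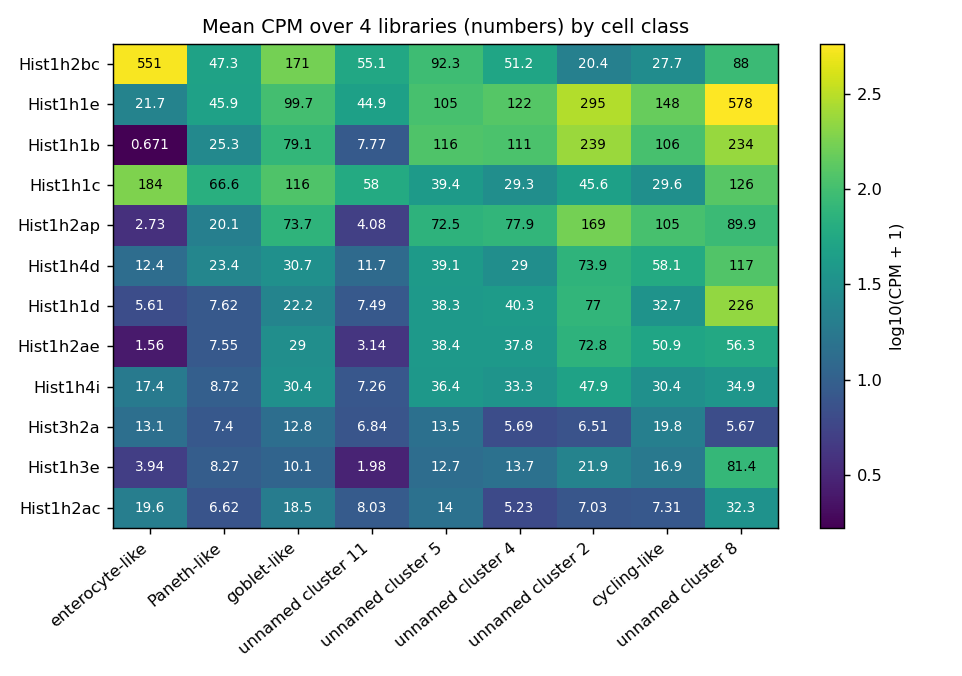
Mean CPM over the 4 libraries (numbers in cells, colour on a log10 scale) of the most abundant histone members and Hist1h2ac, by cell group. Hist1h2bc and Hist1h1c are brightest in the enterocyte-like column at 551 and 184 CPM, and Hist1h1b is at 0.67 CPM there and at 239 CPM in unnamed cluster 2.

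Hist1h2bc and Hist1h2ac are transcribed away from each other, with 250 bases between their annotated starts, and both were lower in S-high cells. Promoter sequence (RefSeq, GRCm38.p6) was matched for 50 members, and not for Hist1h2bc. The motif CCAAT, on either strand, occurred between 250 bases before and 50 after the start in 43 of 50 members (86.0%), against 37.4% of 32851 promoters. The motif ATTTGCAT, on either strand, occurred in 10 (20% against 1.74%), and TATAAA, on either strand, in 27 (54.0% against 13.6%). CCAAT was in every matched H1, H2A, H2B and H3 promoter but in 3 of 10 H4 promoters, and ATTTGCAT was in 5 of 13 H2A and 5 of 14 H2B promoters and in no H1, H3 or H4 promoter. Shown are the 250 bases before Hist1h2ac, which reach the start of Hist1h2bc on the other strand (chr13:23683960-23684209, minus), before Hist1h1c (chr13:23738557-23738806, plus) and before Hist1h1b, higher in S-high cells (chr13:21780626-21780875, minus). Capitals mark the 3 motifs on either strand.
Hist1h2ac: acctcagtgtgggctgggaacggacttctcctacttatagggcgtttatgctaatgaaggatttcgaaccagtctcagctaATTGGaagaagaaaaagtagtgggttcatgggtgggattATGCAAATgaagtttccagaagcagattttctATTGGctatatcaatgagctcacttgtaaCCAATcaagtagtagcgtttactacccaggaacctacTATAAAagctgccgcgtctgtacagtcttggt
Hist1h1c: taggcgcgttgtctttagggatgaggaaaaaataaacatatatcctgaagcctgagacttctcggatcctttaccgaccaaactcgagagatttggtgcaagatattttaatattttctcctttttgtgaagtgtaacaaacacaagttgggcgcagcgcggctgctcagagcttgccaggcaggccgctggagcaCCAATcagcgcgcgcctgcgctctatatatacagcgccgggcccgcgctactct
Hist1h1b: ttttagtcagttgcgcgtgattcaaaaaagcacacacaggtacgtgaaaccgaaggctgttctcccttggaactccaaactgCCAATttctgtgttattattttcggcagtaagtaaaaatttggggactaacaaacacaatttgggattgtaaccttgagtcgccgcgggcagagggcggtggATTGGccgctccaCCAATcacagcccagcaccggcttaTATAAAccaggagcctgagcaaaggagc

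All 3 held CCAAT. The printed stretch between Hist1h2ac and Hist1h2bc also held ATTTGCAT and TATAAA, Hist1h1b held TATAAA, and Hist1h1c held neither of these 2. A match describes the letters only.

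Taken as a sum, low-depth barcodes carried more histone RNA per UMI than well-covered cells. Over all members, they had 2044 and 1263 CPM in the knockouts and 1133 and 1134 CPM in the controls. Well-covered cells of the same libraries had 676, 746, 805 and 917 CPM. The 5% of low-depth barcodes with the most histone RNA held 37.5%, 30.1%, 34.6% and 16.2% of its UMIs. The remaining low-depth barcodes stood at 1348, 923, 784 and 988 CPM, so control 1 fell below the 805 CPM of its well-covered cells. The same cut left well-covered cells at 561, 631, 684 and 766 CPM. Of 56 members tested, 25 were higher and 1 lower, where 23% and 26.6% of 13047 genes were (library as block). The median log2 fold change of the members was 0.97. Without knockout 1 the counts were 5 higher and 3 lower, with a median of 0.34. Most of the higher calls were thus not kept without that library, and the share of all genes in that refit is not given here.

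The largest log2 fold changes among called members with at least 200 UMIs were those of Hist1h2bf (1.79 ± 0.49), Hist1h4c (1.64 ± 0.34) and Hist1h2br (1.60 ± 0.43). Without knockout 1 Hist1h2bf was at 1.01 and Hist1h4c at 1.05, neither called, while Hist1h2br was called at 1.5. Hist1h2bj was at 1.40 ± 0.23 and Hist1h4h at 1.55 ± 0.26. By annotated end, 8 of 17 members ending at the stem-loop were higher and 1 lower, with a median log2 fold change of 1.21. Higher were also 12 of 22 annotated past it (median 0.97) and 5 of 17 with no match (median 0.67). The single lower member was Hist1h2ap (−0.66 ± 0.18), whose annotated transcript ends 3 bases after the stem-loop. It had 84.6 and 54.9 CPM in low-depth knockout barcodes against 72.5 and 56.5 CPM in well-covered knockout cells, and 37.0 and 12.6 CPM in low-depth control barcodes against 73.3 and 49.6 CPM in well-covered control cells. The low-depth control values rest on 22 and 3 UMIs, and on this scale knockout 1 was higher in low-depth barcodes. Without control 1 Hist1h2ap was not called (−0.46, edgeR adjusted p = 0.063), and without knockout 1 it was at −1.03.

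Other genes of the histone pathway were lower in the same barcodes: 13 of 17 chaperones (1 higher), 9 of 13 processing genes (2 higher), and 8 of 11 replication-independent histones (none higher), with H2afz at −2.08 ± 0.20 and Hat1, a histone acetyltransferase, at −1.77 ± 0.17. So were 30 of 41 S and 39 of 49 G2/M genes. Of 6 tested nuclear transcripts 5 were higher, and the nuclear transcripts summed to 80878 to 111027 CPM in low-depth barcodes. Summed tuft cell markers stood at 173 to 368 CPM in low-depth barcodes and 3.92 to 11.9 CPM in well-covered cells, enterocyte markers at 6078 to 20645 and 1583 to 7945 CPM, and immune markers at 1.68 to 8.37 and 1.28 to 2.36 CPM. Their part in the histone level was not tested.

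By depth, summed histone RNA in barcodes under 2000 UMIs was 1981 and 1402 CPM in the knockouts against 751 and 1151 CPM in the controls. In cells with 20000 to under 40000 UMIs it was 731 and 783 against 770 and 800 CPM.

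**Figure D4:**
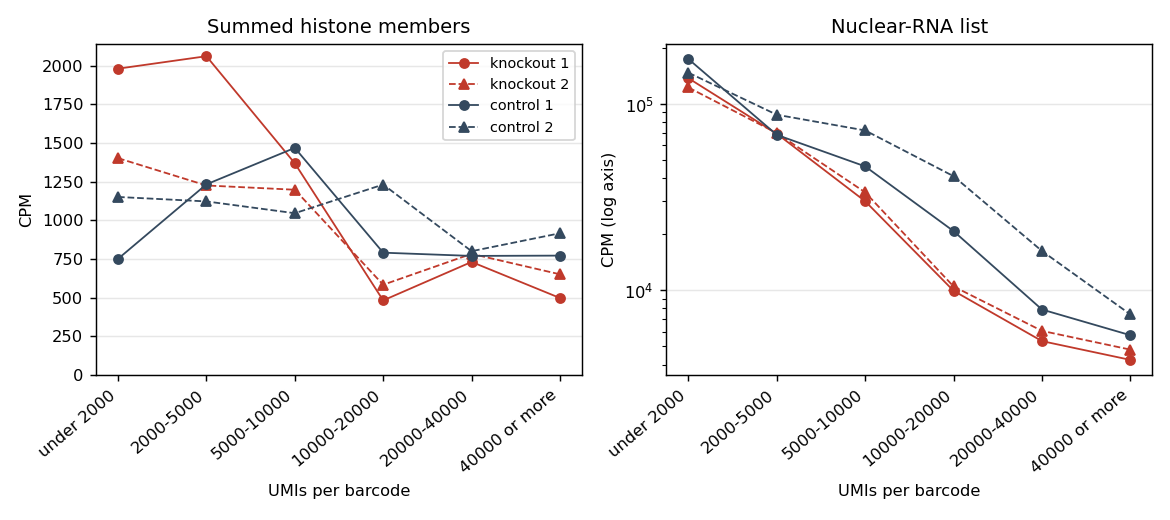
Summed CPM of the 56 histone members (left, linear axis) and of the 7 transcripts called nuclear here (right, log axis) by UMIs per barcode, 1 line per library. Histone RNA is highest in the shallowest bins of knockout 1 (1981 and 2062 CPM), and the nuclear list falls with depth in all 4 libraries.

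Knockout against control compares organoids given 4-hydroxy-tamoxifen to delete Cbl and Cblb with organoids that received none. Over well-covered cells, summed histone RNA averaged 711 ± 49.7 CPM in the knockouts and 861 ± 79.1 CPM in the controls (SD, n = 2 each), or 84.0% and 81.4% of the control of the same mouse. The difference of −150 CPM had p = 0.33 in a two-sided exact permutation test, the smallest value that 2 against 2 libraries can give. Most of it was 1 gene: without Hist1h2bc the difference was −43.5 CPM. H2B genes stood at 60.5% and 55.0% of control, H1 genes at 94.1% and 93.1% and H2A genes at 96.5% and 97.9%, with exact permutation p = 0.556, 0.556 and 0.667 after adjustment over the 5 types.

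With the group as the only term, none of 56 members was called, nor any of 13086 genes (0%), although 1 member and 1238 genes had an unadjusted edgeR p under 0.05. DESeq2 with the group alone called no member either. With the mouse as a block, 2473 genes were called (18.9%, or 7.44% higher and 11.5% lower), and 3 of 56 members were lower and none higher. The median log2 fold change of the members was −0.16 with the block.

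The 3 members were Hist1h2bc, Hist1h1c and Hist1h2ac. Hist1h2bc had 59.6 and 130 CPM in the knockouts against 126 and 276 CPM in the controls (−1.12 ± 0.08, edgeR adjusted p = 2.5e-04 with the block). Hist1h1c had 37.3 and 80.9 against 59.0 and 123 CPM (−0.67 ± 0.08, edgeR adjusted p = 0.00156), and Hist1h2ac 7.43 and 11.2 against 13.1 and 14.7 CPM (−0.63 ± 0.14, edgeR adjusted p = 0.0205). The groups overlapped for the first 2 genes, mouse 2 was higher in both groups, and each knockout was below the control of its mouse for all 3. With the group alone the edgeR adjusted p was 0.563 for Hist1h2bc. Its log2 fold change was then −1.12, and −1.85 without knockout 2, −1.60 without control 1, −0.63 without knockout 1 and −0.38 without control 2. That of Hist1h2ac was −0.61, and −0.99 without knockout 2 and −0.31 without knockout 1. The log2 fold change of Hist1h1c was −0.65, 0.026 without control 2 and −1.38 without knockout 2.

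These 3 genes were also among those lower in S-high than in neither cells, and 2 of them were highest in enterocyte-like cells. Enterocyte-like cells made up 8.35% and 13.1% of well-covered cells in the knockouts and 19.3% and 35.2% in the controls. Within them Hist1h2bc was at −0.33 ± 0.18 (edgeR adjusted p = 0.58 with the block), and no member of 18 tested was called, where 1.74% of 9586 genes were. The mix of the 2 enterocyte-like clusters differed between mice, with 73.0% and 46.4% in cluster 0 in the knockouts and 84.3% and 47.3% in the controls. In a sum over cells, fewer cells of a type and less RNA per cell cannot be told apart.

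Other abundant members were not called over well-covered cells. Hist1h1e had 118 and 104 CPM in the knockouts against 119 and 92.6 CPM in the controls, and Hist1h1b 80.6 and 78.1 against 78.4 and 71.5 CPM. Hist1h2ap had 72.5 and 56.5 against 73.3 and 49.6 CPM, and Hist1h4d 31.5 and 35.8 against 44.7 and 30.3 CPM. For each of these 4 genes the groups overlapped. Meanwhile 28 of 41 S genes, 24 of 49 G2/M genes, 12 of 17 chaperones and 5 of 13 processing genes were higher with the block, Slbp at 0.36 ± 0.08 and Hat1 at 0.49 ± 0.08, and 5 of 6 nuclear transcripts were lower.

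The shares of the cycle classes were not tested. S-high cells were 26.2% and 21% of well-covered cells in the knockouts and 16.5% and 11.8% in the controls, and G2M-high cells 23.2% and 20% against 17.2% and 11.4%. Within each class, the summed histone level of the knockout was below that of the control of the same mouse. S-high cells had 764 and 758 CPM in the knockouts against 887 and 1158 CPM in the controls, G2M-high cells 724 and 856 against 1011 and 1135 CPM, and neither cells 390 and 612 against 544 and 782 CPM. Cells high for both lists had 1151 and 1079 CPM in the knockouts against 1804 and 1347 CPM in the controls, from 101 and 110 against 51 and 16 cells, and were not tested gene by gene. Their H3 genes stood at 51.2% and 104% of the control of the same mouse. The groups overlapped in neither cells and did not in the other 3 classes, and each of these differences had an exact permutation p of 0.33 or 0.67.

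In S-high cells no member was called with the group alone (0% of 10845 genes), although 15 members and 817 genes had an unadjusted edgeR p under 0.05. With the block 7 of 47 tested members were lower and none higher, where 2.6% of genes were lower and 1.83% higher (4.43% in either direction), and the members' median was −0.45. They were Hist1h1b (−0.44 ± 0.09), Hist1h4d (−0.55 ± 0.12), Hist1h2ap (−0.44 ± 0.10), Hist1h2bn (−1.21 ± 0.31), Hist1h4i (−0.48 ± 0.12), Hist1h2bc (−0.47 ± 0.12) and Hist1h1e (−0.38 ± 0.10). The other 9 members did not pass the filter on low counts. Of the S phase genes 1 of 41 was higher and none lower, with a median of 0.04.

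In G2M-high cells 16 of 45 tested members were lower with the block and none higher, where 3.6% of 10871 genes were lower (6.6% in either direction), with a median of −0.51. The largest among called members with at least 200 UMIs were Hist1h2af (−1.09 ± 0.27), Hist1h2bn (−1.08 ± 0.31) and Hist1h2be (−0.87 ± 0.25). Hist1h2af had 4.28 and 5.03 CPM in the knockouts against 8.69 and 10.9 CPM in the controls, with no overlap. With the group alone none was called (0%, with 12 members and 721 genes at an unadjusted edgeR p under 0.05), and with DESeq2 size factors and the block 5 were. In neither cells only Hist1h2bc was lower with the block (−0.70 ± 0.08, edgeR adjusted p = 0.019; with the group alone −1.29 to −0.15 when each library was left out), of 42 tested members, where 2.77% of 12449 genes were lower and 0.948% higher (3.72% in either direction). With the group alone none was called (0%, with no member and 644 genes at an unadjusted edgeR p under 0.05). Whether the knockout effect differed between S-high and neither cells was tested as an interaction, which called no gene of 12026 (0%, with 379 genes and 4 members at an unadjusted edgeR p under 0.05).

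Depth moved with the groups inside these classes. Median depth of S-high cells was 22908.5 and 21075 UMIs in the knockouts against 32456.5 and 46398 in the controls, and of G2M-high cells 30061 and 26900 against 39831 and 57036.5. Within S-high cells of 20000 to under 40000 UMIs the histone level was 775 and 844 CPM in the knockouts against 864 and 1836 CPM in the controls, the last from 11 cells. At 40000 UMIs or more it was 555 and 712 against 781 and 1014 CPM, from 28 and 29 against 41 and 46 cells. G2M-high cells of that depth had 457 and 603 CPM in the knockouts against 849 and 1102 CPM in the controls, from 23 and 17 against 82 and 54 cells. Other depths did not all keep this order. G2M-high cells of 20000 to under 40000 UMIs, which held most of the G2M-high knockout cells, had 698 and 785 CPM in the knockouts against 1139 and 608 CPM in the controls, from 222 and 235 against 53 and 4 cells, so knockout 2 was above control 2. At 5000 to under 10000 UMIs G2M-high cells had 3337 and 3462 against 3702 and 2647 CPM (16 and 31 against 10 and 5 cells) and S-high cells 2973 and 1023 against 2730 and 1638 CPM (30 and 35 against 24 and 5 cells), with 1 knockout of each above its control. At 10000 to under 20000 UMIs G2M-high cells had 1507 and 1033 against 2012 and 4493 CPM, the last from 3 cells, and S-high cells 554 and 586 against 924 and 2799 CPM, the last from 6 cells. Over all well-covered cells with 20000 to under 40000 UMIs, the difference in summed level was −27.9 CPM, and the fit with the block called 3 members higher (Hist1h2ae, Hist1h2bj and Hist1h2ab) and 2 lower (Hist1h2bc and Hist1h1c) of 53, where 6.29% and 12.1% of 12007 genes were higher and lower (18.4% in all).

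**Figure D5:**
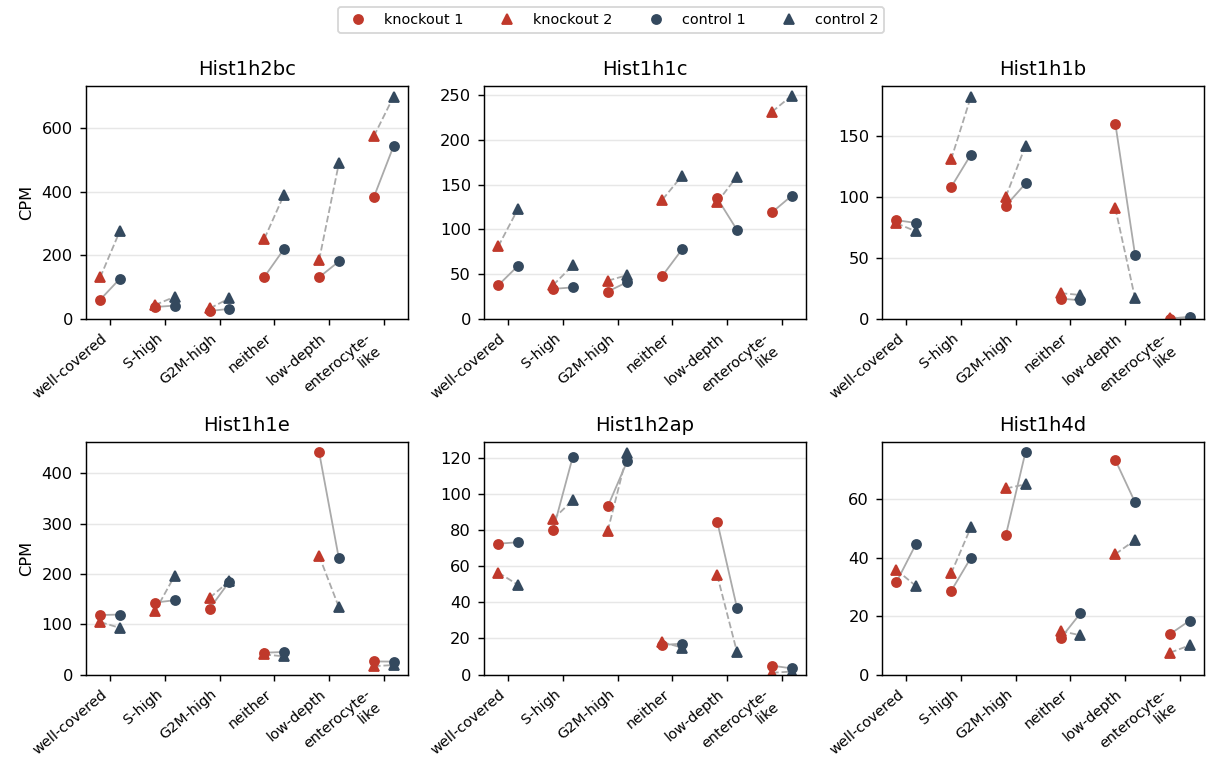
CPM of 6 abundant histone members by cell class, 1 point per library with the knockout left of the control and a line joining libraries of the same mouse. Hist1h2bc and Hist1h1c are below control in the knockout of both mice over well-covered cells, and Hist1h1b is below control in S-high cells but above it in low-depth barcodes (160 and 90.4 CPM against 52.2 and 16.7 CPM).

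In low-depth barcodes the called members were higher in the knockouts. No member was called with the group alone (0% of 8214 genes, with 6 members and 338 genes at an unadjusted edgeR p under 0.05). With the block 4 of 22 tested members were higher and none lower, where 0.292% of genes were higher and 0.84% lower (1.13% in either direction). Hist1h1b had 160 and 90.4 CPM in the knockouts against 52.2 and 16.7 CPM in the controls (1.8 ± 0.36, edgeR adjusted p = 2.6e-04), and Hist2h2bb 51.8 and 22.9 against 10.1 and 4.18 CPM (2.33 ± 0.57, edgeR adjusted p = 0.0082). Hist1h2ap was at 1.39 ± 0.38 and Hist1h1d at 1.27 ± 0.36. Control 2 gave 4, 1, 3 and 5 UMIs of these genes, and 34 members did not pass the filter on low counts.

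The difference of the knockout effect between low-depth and well-covered barcodes, tested as an interaction, was called for 34 of 13047 genes (0.261%, or 0.169% with a positive difference) and for 3 of 56 members, Hist1h1b, Hist2h2bb and Hist1h2ac, all with a positive difference. It was called for no member without knockout 1, for 1 without control 2 and for 6 without control 1.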

How the data were processed

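Single-cell RNA of 4 organoid libraries was analysed from the deposited UMI count matrices, which hold whole numbers. To make these counts the authors used Cell Ranger 3.0.1, and the build was mm10, both from the submitters' processing notes. The strand setting of counting is not given in the sources used here. The histone members and all gene lists were chosen with earlier results of these data known, and the interaction of low-depth with well-covered barcodes and the enterocyte-like fit were added after seeing the data.

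Doublets were scored per library with Scrublet in scanpy 1.11.5 and the top scorers removed at a rate set by the library's number of barcodes (70 in all). Barcodes under 500 genes were kept only as low-depth. Histone genes were left out of clustering, doublet scores are estimates, and clusters without enough markers stayed unnamed. Depth per library, in UMIs, is given in the report, and counts per class limit the precision of rare members.

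Counts were summed per library and class and tested with edgeR 4.0.16 (quasi-likelihood, TMM, filterByExpr, Benjamini-Hochberg) in R 4.3.3. Fold changes are log2 with SE. Knockout was compared with control by group alone. Class contrasts had the library as block. Alternatives were the mouse as replicate block, DESeq2 1.42.0 and its size factors, no low-count filter, other depth limits, a 90th percentile limit, unthinned lists and each library left out. The block leaves 1 residual degree of freedom. The labels give 2 mice and do not tie them to libraries. Same-numbered libraries are taken to share a mouse, from a common tag on their deposited data, and the calls with the block rest on this. Same-numbered libraries deviated together (r of 0.66 in well-covered cells and 0.39 to 0.64 in the classes). Libraries of a group differed by more than sampling noise (chi-square per degree of freedom 61.7 in the knockouts and 88.0 in the controls). The edgeR p-values of the group-alone fits measure the spread between 2 libraries a group. With the mouse block they draw on the spread left between same-numbered pairs. Each gene has 1 residual degree of freedom there, so the spread that edgeR pools over genes carries much of these p-values. In class contrasts they measure how far the class difference varies between libraries. The fits were also run on simulated counts, whose settings and outcome are not given here, and nothing is drawn from them.

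Members named with values were the 10 with the most UMIs, the most abundant of each type, those called in well-covered knockout against control, and, in each other contrast, the 3 largest log2 fold changes among called members with 200 or more UMIs. From the comparison lists the 3 smallest p-values were taken. Other called members were named after their values were seen.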

Additional observations from a re-analysis of the deposited data

Results flagged for a closer look

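The knockout effect on 3 members differed between low-depth barcodes and well-covered cells, by an interaction term with edgeR. The difference of log2 fold changes was 1.56 ± 0.33 for Hist1h1b (edgeR adjusted p = 0.0027), 2.36 ± 0.57 for Hist2h2bb (edgeR adjusted p = 0.019) and 1.79 ± 0.43 for Hist1h2ac (edgeR adjusted p = 0.020). Hist1h2ac had 70 and 27 UMIs in low-depth knockout barcodes against 14 and 3 in low-depth control barcodes, so few counts carry it.

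Summed histone RNA moved in opposite directions in the same barcode sets. It was 520 CPM higher in the knockouts in low-depth barcodes, and the difference was −150 CPM in well-covered cells. The low-depth levels were 180% and 111% of the control of the same mouse, and the difference was 129 CPM without knockout 1 and 911 CPM without knockout 2, values added after seeing the data. H2B genes went the other way in mouse 2, at 139% and 61.2% of control. Few barcodes, 24 and 18 in the knockouts and 12 and 6 in the controls, held 16.2% to 37.5% of each library's low-depth histone UMIs. Without them the low-depth levels were 1348 and 923 CPM in the knockouts against 784 and 988 CPM in the controls. Knockout 2 was then below control 2. The difference between the summed values of low-depth barcodes and well-covered cells was not tested.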

How the results depend on the processing

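The replicate block pairs libraries by number, taken to mark the mouse. With the group alone and the low-count filter no member was called in any barcode set. With the block 3 members were called in well-covered cells, 7 in S-high cells, 16 in G2M-high cells, 1 in neither cells and 4 in low-depth barcodes. With DESeq2 size factors and the block these were 3, 7, 5, 1 and 5. In well-covered cells the block called 2 with DESeq2, 2 with low-depth barcodes included, 3 with all deposited barcodes, 4 from 8000 UMIs, 5 between 20000 and 40000 UMIs and 6 with no filter. In low-depth barcodes 2 were called with the group alone and no filter, and 3 with the block under 3000 UMIs. Leaving out each library with the group alone gave 0 to 1 calls in G2M-high cells and 0 to 9 in low-depth barcodes. For low-depth against well-covered barcodes it gave 8 to 29 calls, and for the interaction with the knockout 0 to 6. Where a group was left with 1 library, it was assumed to vary like the other group. The share over all genes is given above for the group-alone and block fits, and for few other settings. Counts under the remaining settings stand without it and are not read as a result about the members.

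The summed knockout difference in well-covered cells was −43.5 CPM without Hist1h2bc, −27.9 CPM between 20000 and 40000 UMIs and −206 to −93.9 CPM with each library left out. Hist1h1c turned direction without control 2, to 0.026, and leaving out each library gave −1.38 to 0.026. The cause was not tested. Of 258 alternatives for 28 named results, 200 kept direction and side of the threshold, 46 crossed into significance, 11 lost it and 1 turned. The named members had been picked for passing the threshold in the main or the block fit. In the knockout contrasts, where the main fit called none, crossings under the block were therefore fixed by that choice. Results uncalled in both settings count among the 200, so the tally does not measure robustness. Counts of S-high and G2M-high contrasts stayed within 1.5 times under all alternatives run. Few UMIs limit the rare members, above all in low-depth barcodes.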
